A study of Mus musculus with 6 samples.

Results

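The glucocorticoid receptor and 8 genes that serve it or respond to it were examined in livers of control mice and of mice kept in social isolation. The genes were chosen by name: the receptor Nr3c1, the corticosteroid-binding globulin gene Serpina6, the hormone-activating enzyme gene Hsd11b1, the receptor co-chaperones Fkbp5 and Fkbp4, and the glucocorticoid-induced genes Sgk1, Zbtb16, Errfi1 and Dusp1. All probe sets annotated to exactly 1 of these 9 symbols were used, which gave 21 of the 45101 probe sets in the table, and the single-symbol probe sets of the table name 18194 genes in all. All animals were 10-week-old male BALB/c mice of 1 strain with no transgene or drug named in the labels. They were obtained at an age of 4 weeks and spent 10 days in cages of 5 before the groups were formed. Control mice are recorded at 5 per cage. Isolated mice were then kept 1 per cage with less bedding and without social contact for 30 days, and livers of 3 control and 3 isolated samples were hybridised to Affymetrix arrays. Whether every array represents another animal is not stated in the labels, so p-values measure only the spread between these samples, which may be partly technical.

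In rodents the adrenal gland releases corticosterone in stress and in a daily rhythm. The hormone travels in blood bound to corticosteroid-binding globulin, which is made in the liver, and in hepatocytes the enzyme 11-beta-hydroxysteroid dehydrogenase type 1 regenerates it from its inactive keto form. The receptor waits in the cytosol in a complex with HSP90, in which the co-chaperone FKBP51 (Fkbp5) lowers hormone binding and FKBP52 (Fkbp4) favours it. Hormone-bound receptor enters the nucleus and binds glucocorticoid response elements, and Fkbp5 itself is among the genes it induces, which closes a negative feedback loop. Corticosterone itself was not analysed here.

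Fkbp5 was the 1 gene of the 9 with a significant change: its 2 tested probe sets fell in isolated livers, by 1.76-fold and 2.31-fold. Transcripts of the receptor, of the globulin, of the activating enzyme and of Fkbp4 did not pass the test, and neither did the induced genes Sgk1, Zbtb16, Errfi1 and Dusp1. Of the 21 probe sets, 17 had a mean log2 value at or above the filter floor of 4.32, a signal of about 18.0, and were tested with limma over all 22519 probe sets that passed the filter. At an adjusted p under 0.05, 2 of the 17 were lower and 0 higher in isolated mice, while 0.857% of all tested probe sets were lower and 0.773% higher. By limma 5 of the 17 had an unadjusted p under 0.05, and no other tool was run. They were both Fkbp5 and both Errfi1 probe sets and Zbtb16 1439163_at, so they do not count as separate genes. The median log2 change was -0.15 over the 17 and 0.035 over all tested probe sets. Of the 17, 11 had a log2 change below 0, against 9 with median centring and 13 with quantile normalization. The shares of all tested probe sets with an unadjusted p under 0.05 or a log2 change below 0 are not given here, so neither count shows an excess.

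**Figure D1:**
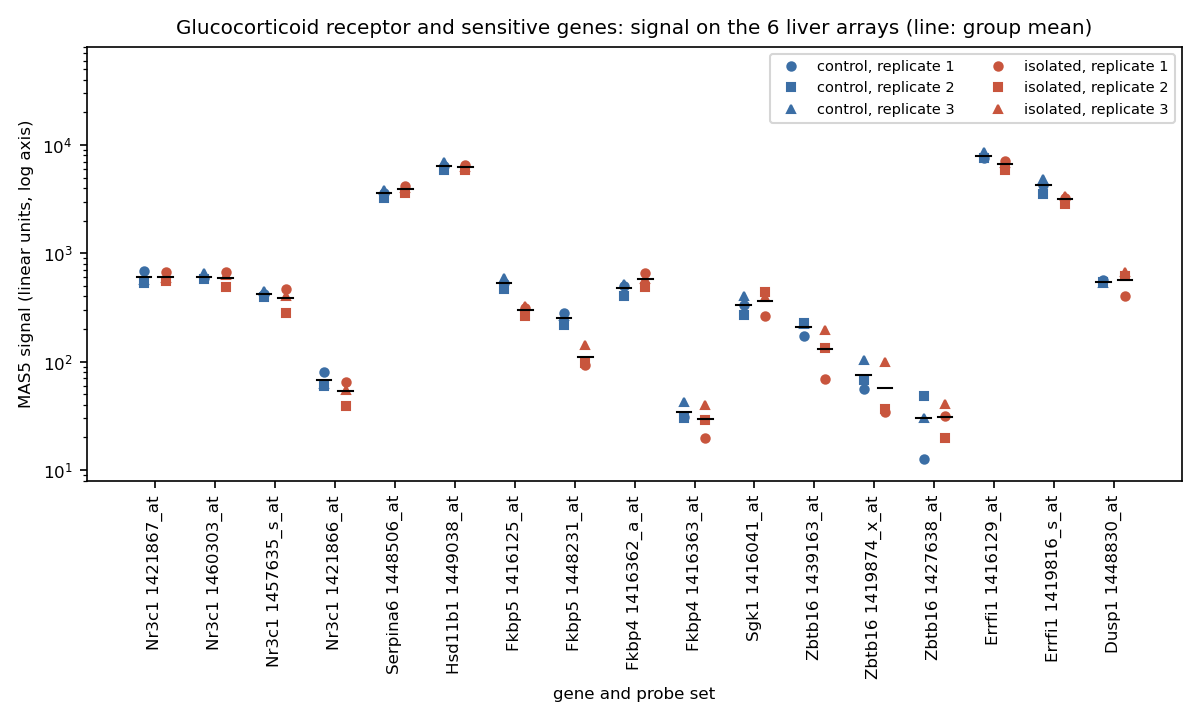
MAS5 signal (log axis) of the 17 tested probe sets of the 9 genes, with control arrays in blue, isolated arrays in red, a marker shape per replicate and a line at each group mean (n = 3). The isolated arrays lie below every control for both Fkbp5 and both Errfi1 probe sets and overlap the controls elsewhere.

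The arrays were alike in median signal and RNA quality but not in estimated weight, and the tissue matched its label. The median signal per array was 18.4 to 22.1, and 2 arrays of a group correlated at 0.9692 to 0.9739 in their log2 values (a correlation over probe sets, not over replicates). Arrays of different groups correlated at 0.9545 to 0.9682. The array weights estimated by limma ran from 0.682 (isolated replicate 2) to 1.85 (isolated replicate 1). Albumin, the defining transcript of hepatocytes, read between 9947 and 10948 on every array, and the summed signal of 7 hepatocyte markers was 68368 to 71137 in controls and 63422 to 70311 in isolated mice. The 3′ to 5′ log2 ratio of the Gapdh control probe sets was -0.51 in controls and -0.53 in isolated mice (exact permutation test, two-sided, p = 0.2), and that of beta-actin 1.15 and 1.11 (exact p = 0.8). In bulk liver RNA, fewer cells of a type and less RNA per cell cannot be told apart.

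The receptor gene Nr3c1 had 6 probe sets, of which 4 were tested and 0 were called. The brightest, 1421867_at, read 687, 533 and 572 on the control arrays of replicates 1, 2 and 3 and 670, 553 and 597 on the isolated arrays of replicates 1, 2 and 3. Values below follow the same order. The groups overlapped fully, with a log2 change of 0.03 ± 0.16 (SE, limma adjusted p 0.978) and a 95% interval of -0.31 to 0.36. That interval runs from a 0.809-fold to a 1.28-fold level, so a change of the size seen for Fkbp5 lies outside it. A second bright probe set, 1460303_at, read 593, 574 and 663 on control arrays and 676, 484 and 626 on isolated arrays, again with full overlap (log2 change -0.05, limma adjusted p 0.964).

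Probe set 1457635_s_at of the receptor read 419, 393 and 444 on control arrays and 468, 283 and 404 on isolated arrays. Isolated replicate 2 was the lowest of the 6 arrays for this probe set and for 2 of the other 3 that were tested, and the signs of the small changes in 1421867_at, 1460303_at and 1457635_s_at each turned when some single array was left out. The dimmest tested probe set, 1421866_at, had the most negative value, at -0.36 (95% interval -0.85 to 0.14, limma adjusted p 0.663), from 67.7 ± 11.2 to 53.1 ± 13.1 (SD, n = 3 per group). That interval includes the log2 change of Fkbp5 1416125_at, at -0.82. Below the filter, 1453860_s_at read 11.9 to 22.1 over the arrays. The other dim probe set, 1431378_at, read 6.7, 4.89 and 4.25 on control arrays and 12.3, 9.7 and 8.26 on isolated arrays, signals under the floor at which probe sets were tested. Its groups did not overlap, with an exact two-sided permutation p of 0.1, the smallest that 3 arrays against 3 can give.

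By Pearson correlation of log2 values over the 6 arrays, the genes most like the receptor's brightest probe set were Lrfn1 (r = 0.966), Malat1 (0.965), Rdh5 (0.962) and Atf7ip (0.958). These are descriptions over 6 arrays that share their scaling. None of these 4 genes was called, with log2 changes of 0.02, -0.00, 0.06 and 0.01.

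Genes that set how much hormone reaches the receptor were bright, and their groups overlapped. Serpina6, the corticosteroid-binding globulin, read 3610, 3236 and 3866 on control arrays and 4186, 3576 and 4025 on isolated arrays. Isolated replicates 1 and 3 lay above every control and replicate 2 within their range, and the log2 change was 0.14 ± 0.12 (SE, limma adjusted p 0.779), with an interval from 0.92-fold to 1.32-fold. Hsd11b1, whose enzyme turns inactive 11-dehydrocorticosterone into corticosterone, read 6394, 5844 and 6919 on control arrays and 6539, 5824 and 6206 on isolated arrays. Its log2 change of -0.04 ± 0.12 (SE, limma adjusted p 0.947) was well inside the spread of the arrays, with an interval from 0.822-fold to 1.15-fold. The sign of this value turned with median centring, at 0.010.

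Around Hsd11b1, 9 of 12 listed genes of glucocorticoid metabolism were tested, and 0 were called in either direction, with a median log2 change of -0.05. Over all genes with a tested probe set, 0.847% were called lower and 0.901% higher, so 0 of 9 is near that share. H6pd, which makes the NADPH that Hsd11b1 needs in the endoplasmic reticulum, had the smallest p. Its signal was 744, 879 and 1042 on control arrays and 544, 328 and 705 on isolated arrays, so that every isolated array lay below every control. The log2 change was -0.81 ± 0.21 (SE) with a limma adjusted p of 0.0625, which missed the threshold. It passed in 7 of the 17 alternative settings, among them the fits without control replicate 1 (0.0493), isolated replicate 1 (0.0459) or isolated replicate 3 (0.0115). Cyp3a13, a steroid-hydroxylating cytochrome P450 gene, came next with -0.26 (limma adjusted p 0.649). Hsd11b2, the gene of the inactivating enzyme, lay below the filter.

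Fkbp5 encodes FKBP51, the co-chaperone that lowers the receptor's affinity for hormone. Probe set 1416125_at read 531, 467 and 586 on control arrays and 310, 262 and 324 on isolated arrays. The highest isolated array stood well under the lowest control. From 528 ± 59.6 to 299 ± 32.2 (SD, n = 3 per group), the signal fell by 0.82 on the log2 scale (SE 0.167), a 1.76-fold decrease with an interval of 1.39-fold to 2.24-fold and a limma adjusted p of 0.0112. Probe set 1448231_at read 281, 219 and 266 on control arrays and 93.5, 97.2 and 141 on isolated arrays. It too separated the groups without overlap, and fell 2.31-fold (interval 1.73 to 3.08) from 255 ± 32.1 to 111 ± 26.7, with a limma adjusted p of 0.00166. Both decreases thus held on all 3 isolated arrays, and the intervals of the 2 probe sets overlap.

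Among the 17 tested probe sets of the 9 genes, 4 had every isolated array below every control and 0 had every isolated array above, against 5.79% and 9.62% of all tested probe sets. The 4 were those of Fkbp5 and Errfi1. The Fkbp5 calls rested on the way limma pools the variance: without the intensity trend neither probe set passed (adjusted p 0.167 for 1416125_at and 0.0951 for 1448231_at), while with a robust trend both did. Probe set 1416125_at also missed the threshold without control replicate 3 (limma adjusted p 0.0641), and 1448231_at passed with each array left out in turn, at 0.0178 or less. The remaining Fkbp5 probe set, 1447736_at, read 0.333, 0.745 and 2.4 on control arrays and 4.36, 5.49 and 3.11 on isolated arrays. These are signals near the bottom of the scale that were not tested and whose log2 values rest on the pseudocount. Every isolated array of 1447736_at lay above every control, opposite in direction to the 2 called probe sets (exact two-sided permutation p 0.1).

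**Figure D2:**
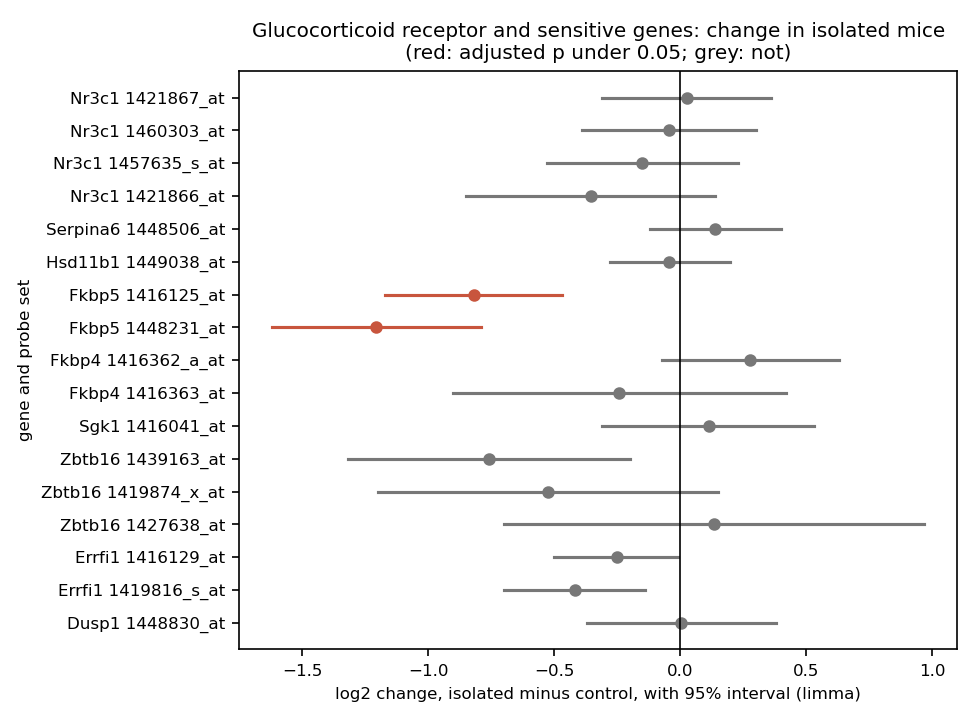
Log2 change, isolated minus control, with its 95% interval, for the 17 tested probe sets. The 2 Fkbp5 probe sets, in red, were called, and the intervals of Zbtb16 1439163_at and both Errfi1 probe sets also lie below 0 without passing the adjusted threshold.

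Fkbp4 encodes FKBP52, the co-chaperone that competes with FKBP51 for the same place on HSP90. Probe set 1416362_a_at read 499, 401 and 518 on control arrays and 656, 488 and 578 on isolated arrays. The log2 change of 0.28 ± 0.17 (SE, limma adjusted p 0.601) had an interval from 0.95-fold to 1.54-fold, which excludes a decrease of the size seen for Fkbp5. Dimmer probe sets of Fkbp4 lay near the floor: 1416363_at read 34.3 ± 6.72 in controls and 29.5 ± 10.2 in isolated mice (SD, n = 3 per group, limma adjusted p 0.868), and 1459808_at, not tested, 16.4 ± 5.7 and 8.61 ± 4.21. The interval of 1416363_at, from 0.535-fold to 1.34-fold, includes the decrease of Fkbp5 1416125_at but not that of 1448231_at.

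Within an array, values of 2 genes share their scaling, so the log2 value of Fkbp5 was also set against other genes of the group, a comparison added after the values were seen. Fkbp5 (1416125_at) minus Fkbp4 (1416362_a_at) was 0.09, 0.22 and 0.18 on control arrays and -1.08, -0.89 and -0.83 on isolated arrays. The groups did not overlap, and the difference between the groups was -1.09, with an exact two-sided permutation p of 0.1, the smallest possible. Against Nr3c1 (1421867_at) the difference was -0.84 and against Sgk1 -0.93, again without overlap and each with an exact p of 0.1. The 3 comparisons share the Fkbp5 values and are not independent.

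Other parts of the receptor's machinery held no call. Over all 10986 genes with a tested probe set, 0.847% were called lower and 0.901% higher, so 0 calls in a short list is near that share. Of 15 listed genes of the receptor's chaperone machinery, 12 had a tested probe set and 0 passed, with a median log2 change of 0.06. Hspa1a, an inducible HSP70 gene, read 72.4, 78.4 and 164 on control arrays and 38.8, 61.4 and 49.9 on isolated arrays, without overlap, but missed the threshold (log2 change -0.96, limma adjusted p 0.0902). It passed without control replicate 1 (0.0362), the control closest to the isolated arrays. Hspa4 had a log2 change of 0.33 (limma adjusted p 0.504), which turned to -0.937 on its dimmest tested probe set. Of 15 listed coregulators of the receptor, 13 were tested and 0 passed, with a median of -0.07. Crebbp, a histone acetyltransferase, had -0.46 (limma adjusted p 0.278), and Smarca4, the ATPase of a chromatin remodelling complex, 0.35 (0.521).

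The genes most like Fkbp5 (1416125_at) over the 6 arrays were Entpd1 (Pearson r = 0.995), Rnf186 (0.993), Tgif1 (0.992) and Chrna2 (0.991). With 2 groups that differ, such a correlation mostly follows the difference between them and is given as a description. Rnf186, a RING-type ubiquitin ligase gene, fell from 174, 156 and 213 to 66.4, 50.9 and 85.5, a log2 change of -1.41 with a limma adjusted p of 0.000706, or 0.0748 without the intensity trend. Entpd1, Tgif1 and Chrna2 had log2 changes of -0.62, -0.81 and -0.90 and did not pass, with limma adjusted p of 0.276, 0.0675 and 0.0884.

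Promoter windows of the gene that fell and of a classical glucocorticoid target that did not pass the test are shown for comparison. RefSeq windows of build GRCm38.p6, from 250 bases before to 50 bases after an annotated start, were at hand for 6 of the 9 genes, 12 windows in all. They were searched on both strands for the palindromic glucocorticoid response element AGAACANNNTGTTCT and for its hexamer AGAACA, which reads TGTTCT on the other strand and forms both ends of the palindrome. Capitals mark the matches, and each window is written 5′ to 3′ on the strand of its gene. The Sgk1 window is chr10:21993640-21993939 on the plus strand, the fifth of 6 for that gene, and the Fkbp5 window is chr17:28486100-28486399 on the minus strand.
Sgk1: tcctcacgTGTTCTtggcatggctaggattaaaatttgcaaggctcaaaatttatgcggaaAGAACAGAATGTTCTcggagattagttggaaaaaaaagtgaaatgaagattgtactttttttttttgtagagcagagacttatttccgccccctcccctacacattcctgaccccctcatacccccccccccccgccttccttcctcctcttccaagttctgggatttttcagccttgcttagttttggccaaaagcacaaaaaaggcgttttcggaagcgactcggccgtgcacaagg
Fkbp5: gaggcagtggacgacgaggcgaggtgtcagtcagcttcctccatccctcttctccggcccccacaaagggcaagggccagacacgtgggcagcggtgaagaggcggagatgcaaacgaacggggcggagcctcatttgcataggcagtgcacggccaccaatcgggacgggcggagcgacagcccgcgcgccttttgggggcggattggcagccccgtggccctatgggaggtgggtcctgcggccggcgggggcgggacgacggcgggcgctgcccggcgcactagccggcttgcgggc

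The Sgk1 window holds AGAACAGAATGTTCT at bases 62 to 76. Of all 32851 promoter windows in the table, 3 hold the palindrome (0.00913%) and 19% hold the hexamer. Among the 12 windows of these genes 1 held the palindrome and 3, all of Sgk1, the hexamer. The windows of Fkbp5, Fkbp4, Hsd11b1, Errfi1 and Dusp1 had neither. As background, receptor binding at Fkbp5 is described mainly in its introns, which these windows do not cover, and a match is a string of letters, not a bound site.

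Sgk1 encodes a serine/threonine kinase that hormone-bound receptor induces in many tissues. Its 1 probe set read 330, 272 and 401 on control arrays and 264, 438 and 393 on isolated arrays. The isolated arrays held both the lowest and the highest value, so the groups overlapped fully, with a log2 change of 0.11 ± 0.20 (SE, limma adjusted p 0.914) and an interval from 0.809-fold to 1.44-fold. The sign turned without control replicate 2 (-0.027) or isolated replicate 2 (-0.034).

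Dusp1 encodes a phosphatase that switches off MAP kinases and that glucocorticoids and growth signals both induce. It read 569, 545 and 531 on control arrays and 400, 623 and 667 on isolated arrays. The controls lay close together (548 ± 19.0, SD, n = 3), whereas isolated replicate 1 was below and replicates 2 and 3 above all of them (563 ± 143). The log2 change was 0.004 ± 0.182 (SE, limma adjusted p 0.997). Isolated replicate 1 was thus the lowest of the 6 arrays for Sgk1 and for Dusp1, and the same held for 2 probe sets of Zbtb16. It was also the lowest for Fkbp5 1448231_at and Fkbp4 1416363_at. Among other tested probe sets it was the highest of the 6, for Nr3c1 1460303_at and 1457635_s_at, Serpina6 1448506_at and Fkbp4 1416362_a_at.

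Zbtb16 encodes PLZF, a transcriptional repressor with zinc fingers and a strong glucocorticoid target in many cell types. Probe set 1439163_at read 173, 229 and 222 on control arrays and 68.7, 133 and 194 on isolated arrays. Isolated replicates 1 and 2 lay below every control and replicate 3 within their range. The log2 change was -0.76 ± 0.27 (SE), from 208 ± 30.5 to 132 ± 62.7 (SD, n = 3 per group), with an interval from 0.402-fold to 0.868-fold and a limma adjusted p of 0.207. The value depended on 2 isolated arrays: it was -0.358 without replicate 1 (limma adjusted p 0.673) and -1.094 without replicate 3, where it passed (0.0301). It also passed when the test was restricted to the brightest 25% of probe sets (0.0452) and with array weights (0.0477).

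The other Zbtb16 probe sets were dimmer. Probe set 1419874_x_at read 55.9, 67.4 and 103 on control arrays and 34, 36.7 and 99.4 on isolated arrays, with replicates 1 and 2 again below the controls and replicate 3 within them (log2 change -0.53, limma adjusted p 0.607). Probe set 1427638_at read 12.7 to 47.8 in controls and 19.6 to 40.6 in isolated mice (0.13, limma adjusted p 0.955), and its sign turned without control replicate 1 (-0.349).

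Some of the listed fat markers differed among the same isolated arrays, and others did not. Adipoq, the defining adipocyte transcript, read 4.38, 8.48 and 15.6 on control arrays against 3.78, 59.5 and 54.8 on isolated arrays, and Lep was near 0 on all arrays, from 0.775 to 3.3. Of 8 listed adipocyte markers 6 had a probe set, 3 were tested and 0 were called, and their summed signal was 210 to 310 in controls and 293, 476 and 562 on the isolated arrays. Fabp4 gave the largest part of that sum, with 117, 202 and 157 against 203, 300 and 404 (log2 change 0.90, limma adjusted p 0.0578). The other tested markers, Cidec and Lipe, had log2 changes below 0 (-0.30 and -0.16, limma adjusted p 0.847 and 0.891). Zbtb16 1439163_at was lowest on isolated replicate 1, where Adipoq was at the level of the controls. Without isolated replicates 2 and 3 the log2 change of this probe set was -1.561, a value that rests on 1 isolated array. In the same fit, which has no spread among isolated arrays, Fkbp5 had -0.760 on 1416125_at and -1.42 on 1448231_at, Sgk1 -0.320 and Dusp1 -0.453. The part of fat RNA in the values of Zbtb16, Sgk1 and Dusp1 was not tested.

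Sums for 2 other cell types separated the groups. Summed neutrophil markers, of which 5 of 7 had a probe set, 1 was tested and 0 were called, were 82.8 to 101 in controls and 26.6 to 79 in isolated mice. Of the 6 cholangiocyte markers 5 had a probe set, 2 were tested and 0 were called, and their sum was 44.8 to 88.9 and 90.5 to 100. Both sums separated the groups (exact two-sided permutation p 0.1 in each), at signals mostly under the filter floor. Every single marker of both types overlapped between the groups. The cholangiocyte sums lay close, with 88.9 the highest control and 90.5 the lowest isolated value. Cxcr2 (log2 change 0.11) and Epcam (-0.10) went against the sums of their cell types. The part of these cells in the Fkbp5 result was not tested. Sums for Kupffer cells, lymphocytes, endothelial cells, stellate cells and red blood cells overlapped between the groups, with exact permutation p from 0.4 to 1 and 0 markers called.

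Errfi1 encodes MIG6, an inhibitor of the epidermal growth factor receptor that glucocorticoids and growth factors induce. Probe set 1416129_at read 7496, 7511 and 8526 on control arrays and 7147, 5817 and 6830 on isolated arrays. Probe set 1419816_s_at read 4274, 3559 and 4840 against 3257, 2826 and 3354. In both, every isolated array lay below every control, and isolated replicate 2 was the lowest. The log2 changes were small, at -0.25 ± 0.12 (SE, limma adjusted p 0.414) and -0.42 ± 0.13 (0.152), or 1.19-fold and 1.34-fold, and neither passed. With quantile normalization 1419816_s_at passed (0.0292).

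**Figure D3:**
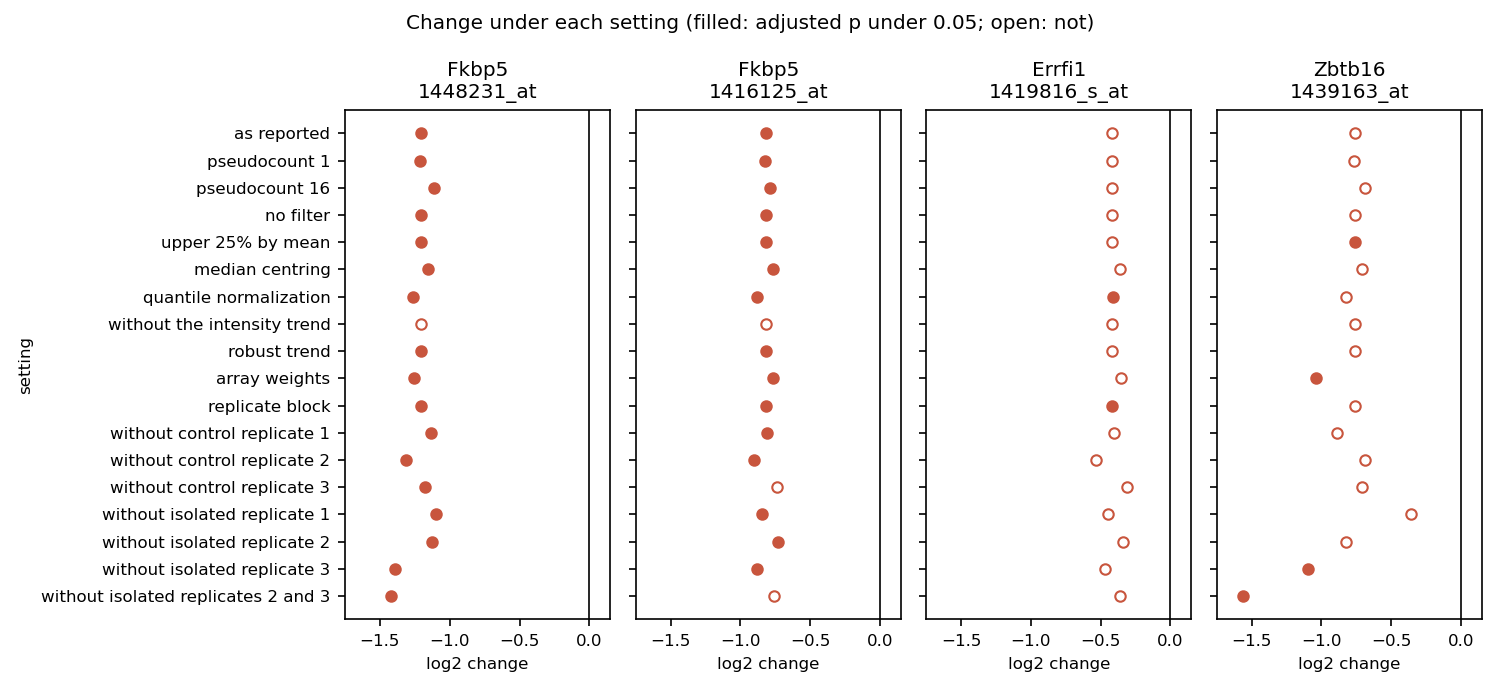
Log2 change of both called Fkbp5 probe sets, of Errfi1 1419816_s_at and of Zbtb16 1439163_at as reported and under 17 alternative settings, filled where the limma adjusted p was under 0.05. All points lie below 0, the Fkbp5 points are mostly filled, and those of Zbtb16 spread from -1.56 to -0.358.

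A wider list of glucocorticoid-induced genes was read beside the 9. Of 25 listed genes 23 had a tested probe set, of which 7 fell, 1 rose and 15 did not pass. Over all 10986 genes with a tested probe set, 0.847% fell and 0.901% rose. The median log2 change was -0.49 in the list and 0.05 over all genes. Many of these genes also respond to insulin, fasting, metals or cytokines, so the list is not specific to the receptor, and it was chosen with earlier results of these data known.

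Igfbp1, a binding protein of insulin-like growth factors that insulin represses, read 942, 2096 and 1023 on control arrays and 52.1, 49.4 and 220 on isolated arrays, a 14.9-fold decrease (limma adjusted p 4.93e-06). The decrease was 24-fold without isolated replicate 3, and the call ended with a robust trend (0.148). The metallothioneins Mt1 and Mt2, which bind zinc and copper, varied widely among controls. Mt1 read 322, 2320 and 2016 against 102, 210 and 206 (limma adjusted p 0.00166), and Mt2 60.8, 1351 and 942 against 46.3, 44.6 and 78.3 (0.0224), where control replicate 1 lay within the isolated range. Without that control the log2 change of Mt1 was -3.71 and that of Mt2 -4.32 (20-fold). Without control replicate 2 Mt2 fell 4.3-fold, and its call was lost without control replicate 3 (limma adjusted p 0.196). The Mt2 call was also lost with no filter (0.171), median centring (0.0586) or quantile normalization (0.128).

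Angptl4, whose protein blocks lipoprotein lipase, fell 4.2-fold (limma adjusted p 1.91e-05). Gadd45b, a stress-induced growth arrest gene, fell 2.73-fold (0.0108), a call lost without control replicate 2 (0.0689). It was also lost with no filter (0.0865), quantile normalization (0.05) or its dimmest tested probe set (0.444). Named after their values were seen, Cebpb, a C/EBP transcription factor, fell 2.3-fold (0.00084), and Klf9, a Krüppel-like factor, 2.18-fold (0.00043) with all 6 of its tested probe sets called. Bcl6, a transcriptional repressor of many lipid and immune genes, was the 1 gene of the list that rose, 2.33-fold from 115, 135 and 125 to 162, 333 and 462 (limma adjusted p 0.0172). Its signal was highest on isolated replicates 2 and 3, the arrays with high Adipoq, a marker that lay below the filter. The part of fat RNA in the Bcl6 values was not tested. The Bcl6 call was lost without isolated replicate 2 (limma adjusted p 0.0507) or 3 (0.0961) or control replicate 3 (0.0869). The Bcl6 call was also lost with no filter (0.0948), quantile normalization (0.0761) or array weights (0.085).

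Calls by limma in this list, as for Fkbp5, depended on the variance model: 1 of the 8, Igfbp1, passed without the intensity trend, and 3, Klf9, Cebpb and Gadd45b, with a robust trend. Without isolated replicate 3, 11 genes fell. Other classical targets did not pass. Ddit4, an inhibitor of mTOR complex 1, read 36.8, 42 and 72.6 on control arrays and 85.6, 79 and 131 on isolated arrays, all isolated arrays being higher (limma adjusted p 0.0701), and it passed without control replicate 3 (0.0296). G6pc, the glucose-releasing phosphatase, had a log2 change of -0.66 (0.0881) and passed without isolated replicate 3 (0.01). Tsc22d3, which encodes the glucocorticoid-induced leucine zipper, read 374, 338 and 539 against 448, 619 and 609, and Per1, a clock gene with receptor sites, 55.7, 20.7 and 74.4 against 50.8, 49.2 and 73.4. Both were named after their values were seen, overlapped between the groups and had log2 changes above 0 (0.43 and 0.34, limma adjusted p 0.371 and 0.805). That of Tsc22d3 was -0.168 on its dimmest tested probe set, and that of Per1 -0.174 without control replicate 2.

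**Figure D4:**
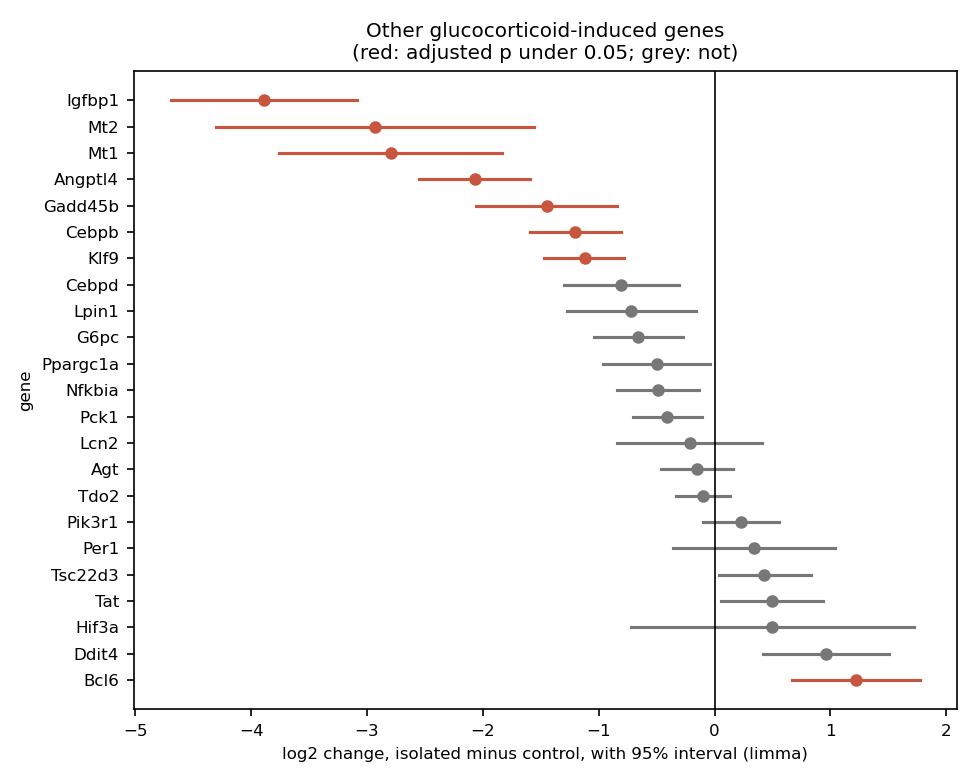
Log2 change, isolated minus control, with its 95% interval, for the 23 tested genes of the wider list, ordered by size. The 7 that fell and the 1 that rose are red, and the 15 grey genes lie on both sides of 0.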

How the data were processed

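Liver RNA of 3 control and 3 isolated mouse samples was measured on Affymetrix arrays from 2 µg of total RNA, per the labels' protocols. The deposited intensity values are linear MAS5 signals per probe set, made by the authors with MAS5 per the submitters' processing notes. The scaling target and detection calls are not known here. Of 45101 probe sets 64 controls were set apart. After adding a pseudocount of 2, the rounded 10th percentile, log2 values were taken, and the upper 50% by mean (22519) were fitted with limma 3.58.1 in R 4.3.3 (2 groups, eBayes with an intensity trend, two-sided, Benjamini-Hochberg over all tested probe sets). Folds are on the log2(value + 2) scale and understate changes of dim probe sets. Probe sets were named by the platform annotation (34958 with 1 symbol, 932 with several, 9211 with none), and promoter windows came from RefSeq (GRCm38.p6). A listed gene was represented by its brightest tested probe set. Marker sums used the brightest probe set of each marker.

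The 9 genes, the lists and the alternatives were chosen with earlier results of these data known. Named were all probe sets of the 9 genes, up to 6 called genes and 2 uncalled genes of smallest p per list, and the 4 genes most correlated with Nr3c1 and with Fkbp5. The number of arrays limits the precision. Exact tests were run with scipy 1.17.1, and figures were drawn with matplotlib 3.10.9.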

Additional observations from a re-analysis of the deposited data

How the results depend on the processing

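The 17 alternatives covered pseudocounts of 1 and 16, no filter, the brightest 25%, median centring, quantile normalization, other variance models, weighted arrays, a replicate block, each array left out, and isolated replicates 2 and 3 left out. For listed genes the dimmest probe set per gene was also tried. Lower probe sets of the 9 genes numbered 0 to 3 against 2 as reported: 0 without the intensity trend, 1 to 3 with 1 array left out (1 without control replicate 3), and 3 with the replicate block. The number of higher ones was 0 in all 17. Among other glucocorticoid-induced genes 1 fell without the intensity trend, 3 with a robust trend and 6 to 11 with 1 array left out, against 7 as reported. With no filter or quantile normalization 5 fell, with median centring 6, and with array weights or the replicate block 8. Those that rose, 1 as reported, numbered 2 with median centring or the replicate block and 0 to 2 with 1 array left out. They numbered 0 with no filter, quantile normalization, no trend or the dimmest probe sets. Deviations of samples with the same replicate number correlated over probe sets at 0.00777, 0.0436 and 0.00491. Such a correlation cannot show whether these samples share a day or batch. With the replicate block Errfi1 1419816_s_at (limma adjusted p 0.0317), H6pd (0.0323) and Ddit4 (0.0262) passed, and no other call named here changed.

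Signs of small log2 changes turned as follows, with ranges over the fits that leave out 1 array. Nr3c1 1421867_at ran from -0.052 to 0.130 and was -0.038 with quantile normalization. Nr3c1 1460303_at ran from -0.144 to 0.096 and was 0.008 with median centring, 0.049 with array weights and 0.151 without isolated replicates 2 and 3. Nr3c1 1457635_s_at ran from -0.305 to 0.056 and was 0.162 without both. Hsd11b1 ran from -0.105 to 0.016 and was 0.010 with median centring, 0.011 with array weights and 0.038 without both. Fkbp4 1416363_at ran from -0.476 to 0.004, Sgk1 from -0.034 to 0.329 (-0.320 without both) and Zbtb16 1427638_at from -0.349 to 0.533. Dusp1 ran from -0.135 to 0.232 and was -0.047 with quantile normalization, -0.164 with array weights and -0.453 without both. Hspa4 was -0.042 without both and -0.937 on its dimmest probe set, and Tsc22d3 -0.168 on its own. Per1 ran from -0.174 to 0.701. The beta-actin ratio difference ran from -0.099 to 0.022. The cause was not tested.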
